A study of Mus musculus with 4 samples.

Results

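The cholesterol and fatty acid synthesis module comprised 33 genes, chosen by gene symbol from the 54532 genes listed in each count table. They fall into 18 enzymes of sterol synthesis, 5 genes of the SREBP control system, 9 enzymes of fatty acid synthesis, elongation and desaturation, and the sterol carrier Stard4. All 33 were found in the 4 libraries and all 33 passed the filter on low counts, a mean of at least 1 normalized CPM (library-scaled read count), which 11640 genes passed. The cells were RAW 264.7, a mouse macrophage-like line derived from an Abelson virus-induced tumour. The 4 groups, each with 1 library of polyadenylated RNA, were Hnrnpul1-/- (knockout) cells given lipopolysaccharide (LPS) at 100 ng/ml for 10 h, wild-type cells given the same LPS, untreated Hnrnpul1-/- cells and untreated wild-type cells. LPS is a bacterial cell wall component sensed by macrophages through TLR4, and Hnrnpul1 encodes a nuclear RNA-binding protein. The labels do not say how the knockout was made or whether it is 1 clone.

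Cholesterol is built from acetyl-CoA through mevalonate, isoprenoid diphosphates, squalene and lanosterol. Fatty acids are built from the same acetyl-CoA by a carboxylase and a synthase, and are then lengthened by elongases and given double bonds by desaturases. Both branches are driven by the sterol regulatory element-binding proteins (SREBPs, encoded by Srebf1 and Srebf2), which the escort protein SCAP carries to the Golgi for cleavage when sterols are low and which the INSIG proteins hold in the endoplasmic reticulum when sterols are plentiful. In macrophages these pathways supply membrane lipid, lipid mediators and oxysterols, and they are known to be reset during Toll-like receptor activation.

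Total counts ranged from 17045432 to 17909549 per library. Hnrnpul1 had 21.7 CPM in LPS-treated knockout and 203 CPM in LPS-treated wild-type cells, and 23.1 CPM in untreated knockout and 268 CPM in untreated wild-type cells. The knockout level was thus 10.7% of the wild-type level under LPS and 8.62% without LPS, and the labels do not say which exons were deleted, so these reads cannot be placed relative to the deletion. Of 9 macrophage markers 8 were measured in all libraries (Mrc1 had 0 to 2 reads), and their summed level was 5658 CPM in knockout and 8492 CPM in wild-type cells under LPS, and 3163 CPM in knockout and 3695 CPM in wild-type cells without it. None of 10 markers of other cell types passed the filter, and their summed counts were 5 to 21. The 8 LPS-response genes Tnf, Il1b, Il6, Nos2, Ptgs2, Acod1, Cxcl10 and Ccl5 had 876 to 72634 counts in the LPS-treated libraries and 0 to 1507 counts in the untreated libraries.

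The stretch before the start site is where SREBPs are known to bind together with NF-Y. RefSeq promoter sequences of build GRCm38.p6 were matched by symbol for 26 of the 33 genes; Fdps, Fdft1, Sqle, Scd1, Scd2, Fads1 and Stard4 were not among them. Of these 5 are shown, 250 bases each up to the base before the start site and read 5′ to 3′ along the gene. Insig1 and Msmo1 had more RNA with LPS, Hmgcs1 and Tm7sf2 had less, and Srebf2, which encodes an SREBP itself, did not pass the test for LPS. Insig1 is at chr5:28071162-28071411 on the plus strand, Msmo1 at chr8:64733579-64733828 on the minus strand, Hmgcs1 at chr13:119690101-119690350 on the plus strand, Srebf2 at chr15:82147019-82147268 on the plus strand and Tm7sf2 at chr19:6067851-6068100 on the minus strand, inside the span that the count tables give for that gene. Capitals mark TCACNCCA or its longer form TCACNCCAC (the sterol regulatory element), CCAAT or its reverse complement ATTGG (the NF-Y motif) and CACGTG (the E-box).
Insig1: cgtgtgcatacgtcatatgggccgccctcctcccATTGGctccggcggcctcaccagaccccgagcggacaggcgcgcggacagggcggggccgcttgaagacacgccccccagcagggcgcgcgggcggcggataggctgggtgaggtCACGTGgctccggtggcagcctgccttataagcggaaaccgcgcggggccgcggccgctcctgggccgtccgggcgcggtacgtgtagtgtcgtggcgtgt
Msmo1: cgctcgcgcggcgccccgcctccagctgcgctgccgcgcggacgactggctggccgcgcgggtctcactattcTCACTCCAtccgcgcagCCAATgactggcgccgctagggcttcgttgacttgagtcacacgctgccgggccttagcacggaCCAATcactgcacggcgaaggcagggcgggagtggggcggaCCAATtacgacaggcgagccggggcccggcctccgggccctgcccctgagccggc
Hmgcs1: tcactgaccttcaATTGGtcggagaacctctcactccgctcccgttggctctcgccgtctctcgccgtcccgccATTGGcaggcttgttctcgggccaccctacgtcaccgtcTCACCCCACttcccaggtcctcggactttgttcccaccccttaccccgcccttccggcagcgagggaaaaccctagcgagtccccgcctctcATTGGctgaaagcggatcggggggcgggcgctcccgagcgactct
Srebf2: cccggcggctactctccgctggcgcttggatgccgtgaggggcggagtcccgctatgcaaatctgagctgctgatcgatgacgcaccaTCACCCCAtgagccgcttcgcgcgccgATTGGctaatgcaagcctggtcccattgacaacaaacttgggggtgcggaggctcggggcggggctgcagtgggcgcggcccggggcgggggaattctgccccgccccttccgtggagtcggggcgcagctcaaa
Tm7sf2: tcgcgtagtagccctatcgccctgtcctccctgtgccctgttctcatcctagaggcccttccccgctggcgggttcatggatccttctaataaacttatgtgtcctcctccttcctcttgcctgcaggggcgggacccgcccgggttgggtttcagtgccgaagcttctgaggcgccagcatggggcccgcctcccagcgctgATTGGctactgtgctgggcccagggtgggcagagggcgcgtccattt

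The sterol element TCACNCCAC was found in 1 of the 26 promoters, that of Hmgcs1 (3.85%, against 1.27% of the 8536 tested genes with a listed promoter), where it begins 137 bases before the start. Its first letters, TCACNCCA, which count every longer match too, were found in 3 of 26 (11.5%), those of Hmgcs1, Msmo1 and Srebf2, against 4.03% of the tested genes. They begin 177 bases before the start of Msmo1 and 162 bases before that of Srebf2. CCAAT was found on either strand in 20 of 26 promoters (76.9%), against 41.2% of the tested genes. By branch, 14 of 15 sterol enzymes and 2 of 6 fatty acid enzymes held CCAAT. The E-box was found in 6 of 26 (23.1%, against 10.3%), and the Sp1 motif GGGCGG, searched on both strands and left in lower case, in 21 of 26 (80.8%, against 64.5%). The Sp1 motif was held by 14 of 15 sterol and 2 of 6 fatty acid enzymes. All motifs were searched on both strands, a gene with several listed starts counted when any of them matched, and a match is a description of the letters only.

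Compared per transcript length, as RPKM, the fatty acid branch held the most abundant messages of the module. Scd2, a stearoyl-CoA desaturase that makes monounsaturated fatty acids, stood first with 71.3 RPKM in LPS-treated knockout, 91.4 RPKM in LPS-treated wild-type cells and, among untreated cells, 162 RPKM in knockout and 179 RPKM in wild type. Fads2, Acly, Fads1 and Fasn followed by mean level, and Srebf2 was sixth. At the other end were Scd1, the paralogue of Scd2, with 1.60 to 6.26 RPKM, Fdps with 0.851 to 1.46 RPKM and Tm7sf2 with 0.233 to 1.01 RPKM. The low members rest on few reads, Tm7sf2 on 20 to 107 and Fdps on 55 to 119, so their ratios carry wide counting intervals.

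**Figure D1:**
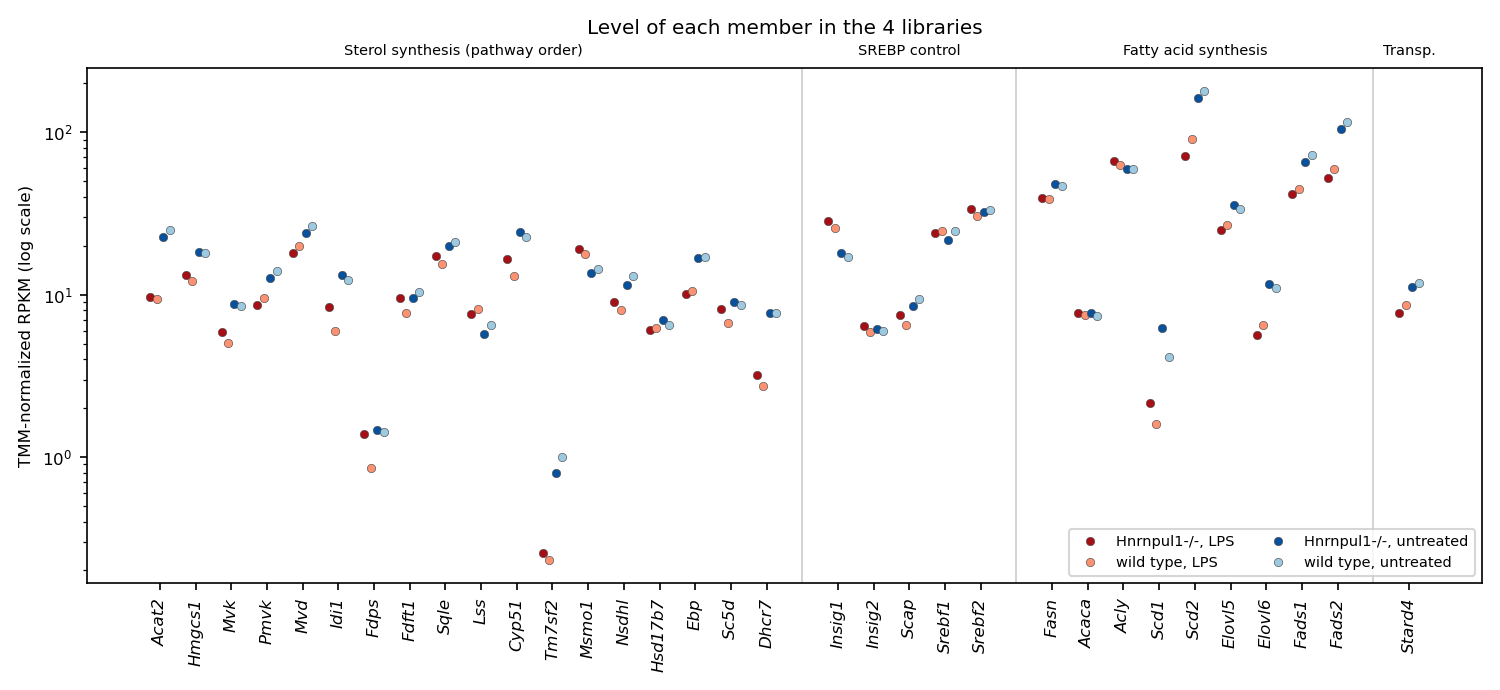
Level of each of the 33 genes in the 4 libraries, in TMM-normalized RPKM on a log axis, grouped by sterol synthesis, SREBP control, fatty acid synthesis and sterol transport. Each point is 1 library. Scd2 lies at the top, with 71.3 to 179 RPKM, and Tm7sf2 at the bottom, with 0.233 to 1.01 RPKM.

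With LPS the messages of both branches were mostly lower, in either genotype. Each ratio below is the log2 of the LPS-treated over the untreated library after TMM scaling, with a 95% interval that covers counting error only, since each group had 1 library and there is no replicate check. A gene was called when it passed 2-fold and its interval excluded no change. In knockout cells 6 of 33 members were called lower (Acat2, Tm7sf2, Dhcr7, Scd1, Scd2 and Elovl6), against 12.0% of all genes tested, and 0 were called higher, against 11.6%. In wild-type cells 5 were called lower (Acat2, Idi1, Tm7sf2, Dhcr7 and Scd1), against 10.1%, and 0 higher, against 11.2%. Smaller differences made up most of the module: the counting interval lay below 0 for 22 members in knockout and 25 in wild-type cells (38.2% and 36.2% of all genes), and above 0 for 6 and 4 members (37.4% and 37.0%). At 1.5-fold, 10 members were lower and 1 higher in knockout (21.0% and 19.3% of all genes), and 14 lower and 0 higher in wild-type cells (19.2% and 18.9%). In such bulk libraries fewer expressing cells and less RNA per cell cannot be told apart.

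The test that the design allows for LPS sets both LPS-treated libraries against both untreated ones, with genotype as a term, and leaves 1 residual degree of freedom per gene. The spread it uses is how the LPS response differs between genotypes, moderated across genes, and not a spread between replicate cultures. A gene whose response differs by genotype can therefore fail to pass. In that additive fit (edgeR's quasi-likelihood test, Benjamini-Hochberg adjusted over all genes), 3 members rose with LPS (Lss, Msmo1 and Insig1), 21 fell and 9 did not pass, where 30.2% of all genes rose and 30.1% fell. The members that fell were 12 sterol enzymes, 7 fatty acid enzymes, Scap and Stard4. DESeq2's Wald test, also adjusted over all genes, called 3 higher and 17 lower, losing Pmvk, Mvd, Sqle and Scap, against 22.8% and 19.9% of all genes. Scaling to total counts in place of TMM moved the median of all genes to -0.33 in knockout and -0.30 in wild-type cells, and higher calls then made up 31.4% of all 2-fold calls in knockout and 33.9% in wild-type cells, against 49.0% and 52.6% with TMM. With that scaling 29 members fell and Insig1 alone of the 33 rose, so each LPS ratio here is relative to the bulk of other genes. The shares of all genes that fell and rose in that fit were not counted, so these counts of members have no background beside them.

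The first enzymes of the sterol branch make mevalonate and its isoprenoid products. Acat2, the thiolase that joins 2 acetyl-CoA units, had 24.7 CPM in LPS-treated knockout and 57.9 CPM in untreated knockout cells, and 24.0 CPM in LPS-treated wild-type and 63.8 CPM in untreated wild-type cells. Both LPS libraries lay well below both untreated ones, at 42.6% of the untreated level in knockout (log2 ratio -1.23, interval -1.40 to -1.06) and 37.6% in wild-type cells (-1.41, -1.58 to -1.24), and Acat2 fell in the additive fit (edgeR adjusted p = 8.80e-06). Hmgcs1, which makes HMG-CoA and carries the full sterol element in the promoter printed above, had 60.8 CPM in LPS-treated and 84.4 CPM in untreated knockout cells, and 55.4 CPM in LPS-treated and 83.0 CPM in untreated wild-type cells. It fell by less, to 72.1% of the untreated level in knockout and 66.8% in wild-type cells (edgeR adjusted p = 0.000514). Mvk and Pmvk, which phosphorylate mevalonate in turn, and Mvd, which decarboxylates the product, also fell, with log2 ratios of -0.56 to -0.40 in knockout and -0.75 to -0.41 in wild-type cells.

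Idi1, the isomerase that interconverts the isoprenoid building blocks, had 29.4 CPM in LPS-treated and 46.4 CPM in untreated knockout cells, and 20.9 CPM in LPS-treated and 43.2 CPM in untreated wild-type cells. Its log2 ratio passed 2-fold in wild-type cells (-1.05, interval -1.24 to -0.86) and was -0.66 (-0.82 to -0.50) in knockout. Fdps, which makes farnesyl diphosphate, had 94 counts in LPS-treated and 119 in untreated knockout cells, and 55 in LPS-treated and 114 in untreated wild-type cells. The LPS-treated wild-type library stood below the other 3, with a log2 ratio of -0.74 (-1.24 to -0.27) against -0.07 (-0.48 to 0.33) in knockout, and Fdps did not pass the additive test (edgeR adjusted p = 0.193). Fdft1, squalene synthase, had the same shape, with 40.2 CPM in LPS-treated and 40.4 CPM in untreated knockout cells, and 32.6 CPM in LPS-treated and 43.6 CPM in untreated wild-type cells. Over these 8 genes the median log2 ratio was -0.52 in knockout and -0.66 in wild-type cells, where the medians of all genes were -0.02 and -0.004.

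Among the 10 enzymes from squalene to cholesterol, 2 rose and 6 fell in the additive fit, against 30.2% and 30.1% of all genes. Lss, which closes squalene epoxide to lanosterol, had 82.2 CPM in LPS-treated and 62.0 CPM in untreated knockout cells, and 87.8 CPM in LPS-treated and 70.6 CPM in untreated wild-type cells. Msmo1, the oxidase that starts removal of the remaining ring methyl groups, had 118 CPM in LPS-treated and 84.0 CPM in untreated knockout cells, and 109 CPM in LPS-treated and 88.2 CPM in untreated wild-type cells. Both genes were higher in both LPS libraries than in either untreated one, by log2 ratios of 0.41 and 0.31 for Lss (edgeR adjusted p = 0.00351) and 0.49 and 0.30 for Msmo1 (0.00275), but with total-count scaling neither passed (0.06 and 0.09 over both genotypes). The enzymes around them went the other way. Sqle, squalene epoxidase and thus the step just before Lss, had log2 ratios of -0.22 in knockout and -0.45 in wild-type cells. Cyp51, the lanosterol demethylase just after Lss, had -0.55 and -0.79. Nsdhl, which works after Msmo1 in the same demethylation, had -0.34 in knockout and -0.71 in wild-type cells, while Hsd17b7, the reductase that completes it, had -0.19 and -0.07 and did not pass (edgeR adjusted p = 0.284).

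The lowest ratios of the sterol branch belonged to reductases. Tm7sf2, a sterol reductase acting after Cyp51, had 23 counts in LPS-treated and 86 in untreated knockout cells, and 20 in LPS-treated and 107 in untreated wild-type cells, or 1.43, 4.44, 1.30 and 5.63 CPM in that order. Its LPS level was 32.2% of the untreated one in knockout (log2 ratio -1.64, interval -2.37 to -0.96) and 23.1% in wild-type cells (-2.11, -2.88 to -1.41), and it fell in the additive fit (edgeR adjusted p = 0.000851). Dhcr7, which makes cholesterol in the last step of one arm of the pathway, had 18.7 CPM in LPS-treated and 44.7 CPM in untreated knockout cells, and 15.9 CPM in LPS-treated and 45.0 CPM in untreated wild-type cells. That is 41.9% and 35.3% of the untreated level (log2 ratios -1.26 and -1.50), and Dhcr7, at chr7:143823145-143848410, is the only member called lower in both genotypes that has neither a near-identical copy nor an exon-overlapping gene with reads. Ebp, the sterol isomerase, fell with log2 ratios of -0.75 and -0.70. Sc5d, the desaturase acting after it, had -0.14 in knockout and -0.37 in wild-type cells and missed the threshold (edgeR adjusted p = 0.0559).

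Of the 5 SREBP control genes 1 rose, 1 fell and 3 did not pass the additive test, where 30.2% of all genes rose and 30.1% fell. Insig1, the retention protein of the endoplasmic reticulum and itself a known SREBP target, had 87.6 CPM in LPS-treated and 55.7 CPM in untreated knockout cells, and 79.1 CPM in LPS-treated and 52.9 CPM in untreated wild-type cells. Both LPS libraries lay above both untreated ones, and Insig1 had the highest LPS ratio of all 33 members in either genotype (log2 0.65, interval 0.54 to 0.77, in knockout and 0.58, 0.46 to 0.70, in wild-type cells, edgeR adjusted p = 0.00019). It stayed above 0 with total-count scaling, at 0.34 in knockout and 0.28 in wild-type cells. Its relative Insig2 had 22.3 CPM in LPS-treated and 21.5 CPM in untreated knockout cells, and 20.3 CPM in LPS-treated and 20.6 CPM in untreated wild-type cells. The counting intervals of its LPS and genotype ratios all included 0. Scap, the escort protein, had 55.9 CPM in LPS-treated and 63.6 CPM in untreated knockout cells, and 48.3 CPM in LPS-treated and 69.6 CPM in untreated wild-type cells, and fell in the additive fit (edgeR adjusted p = 0.0135). For the transcription factor genes, Srebf1 had log2 ratios of 0.14 in knockout and -0.001 in wild-type cells, and Srebf2 0.06 and -0.14, and with total counts all 4 of these ratios lay below 0, at -0.17 to -0.43.

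In the fatty acid branch the late steps had lower LPS ratios than the early ones. The 2 sets met in wild-type cells, where the counting intervals of Fasn (-0.31 to -0.22) and the late-step Elovl5 (-0.43 to -0.24) overlapped. The genes that supply and build the chain are Acly, which makes cytosolic acetyl-CoA from citrate, Acaca, the acetyl-CoA carboxylase, and Fasn, the synthase. Acly had 349 CPM in LPS-treated and 312 CPM in untreated knockout cells, and 330 CPM in LPS-treated and 312 CPM in untreated wild-type cells. Acaca had 132, 131, 129 and 126 CPM in the same order. Neither passed the additive test (edgeR adjusted p = 0.154 and 0.832), and with total counts their ratios over both genotypes changed sign, to -0.18 for Acly and -0.29 for Acaca. Fasn had 430 CPM in LPS-treated and 524 CPM in untreated knockout cells, and 422 CPM in LPS-treated and 508 CPM in untreated wild-type cells, and fell by a small margin (log2 ratios -0.29 and -0.26, edgeR adjusted p = 0.00619).

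All 6 elongases and desaturases fell in the additive fit (30.1% of all genes did), with a median log2 ratio of -1.02 in knockout and -0.86 in wild-type cells. Scd2 had 389 CPM in LPS-treated and 885 CPM in untreated knockout cells, and 498 CPM in LPS-treated and 976 CPM in untreated wild-type cells. Its log2 ratio was -1.19 (-1.23 to -1.15) in knockout and -0.97 (-1.01 to -0.93) in wild-type cells, and its edgeR adjusted p of 7.06e-06 was the smallest of the module. Scd1, whose enzyme does the same reaction, had 10.4 CPM in LPS-treated and 30.3 CPM in untreated knockout cells, and 7.75 CPM in LPS-treated and 19.9 CPM in untreated wild-type cells, or 34.3% and 39.0% of the untreated level. Elovl6, which lengthens saturated and monounsaturated chains, had 36.5 CPM in LPS-treated and 75.1 CPM in untreated knockout cells, and 42.1 CPM in LPS-treated and 70.5 CPM in untreated wild-type cells.

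The enzymes of polyunsaturated fatty acids gave lower ratios too. Fads2, the desaturase of the first step, had 79.4 CPM in LPS-treated and 158 CPM in untreated knockout cells, and 89.6 CPM in LPS-treated and 176 CPM in untreated wild-type cells, just short of 2-fold in either genotype (log2 ratios -0.99 and -0.97). Fads1, the desaturase of a later step, had -0.64 in knockout and -0.70 in wild-type cells, and Elovl5, the elongase between them, -0.50 and -0.33. Stard4, which moves cholesterol between membranes, had 43.3 CPM in LPS-treated and 62.6 CPM in untreated knockout cells, and 47.9 CPM in LPS-treated and 66.2 CPM in untreated wild-type cells (edgeR adjusted p = 0.000845). The LPS libraries of these 4 genes all lay below the untreated ones.

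**Figure D2:**
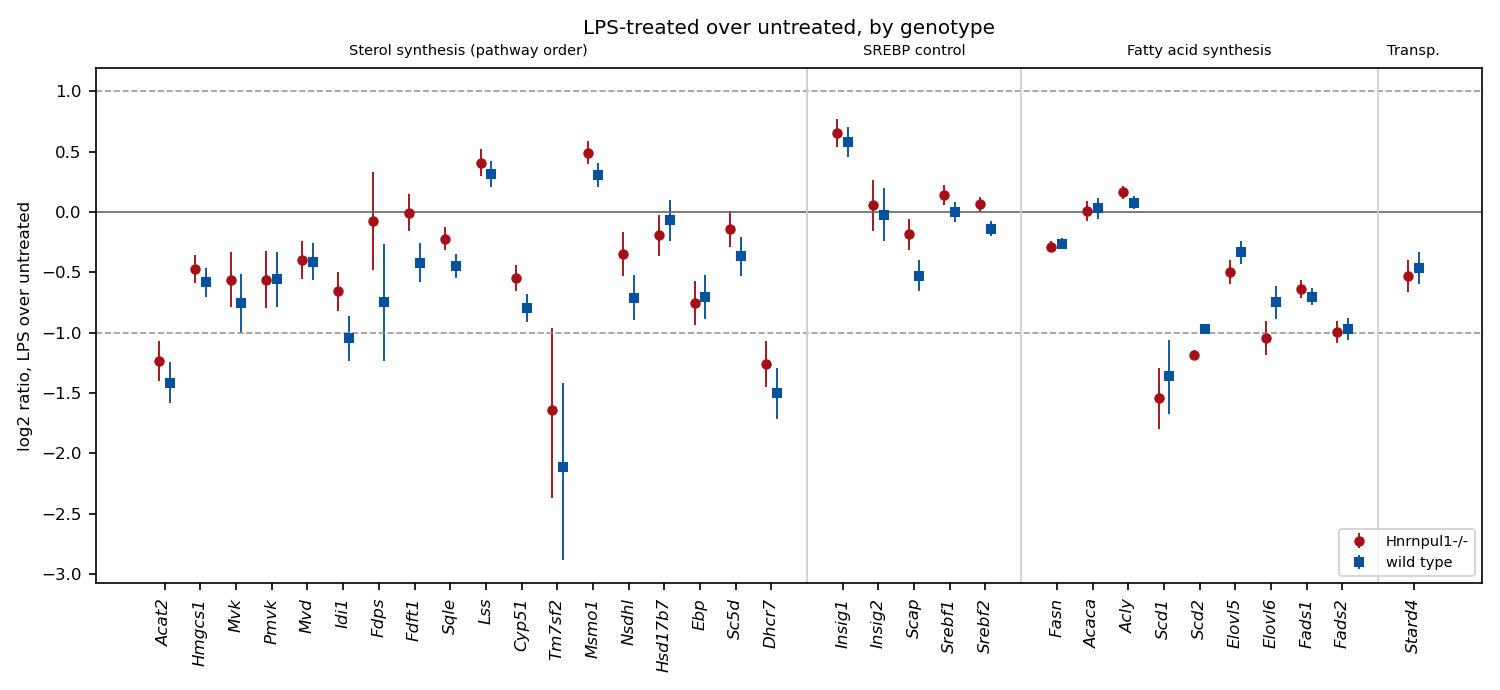
Log2 ratio of LPS-treated over untreated cells for each of the 33 genes in knockout and wild-type cells, with 95% counting intervals, from 1 library per group. Dashed lines mark 2-fold. Insig1 is highest in both genotypes (0.65 and 0.58) and Tm7sf2 lowest (-1.64 and -2.11), and most points lie below 0.

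Set side by side, the medians of the branches differed by little. The median LPS log2 ratio in knockout was -0.44 for the 18 sterol enzymes and -0.64 for the 9 fatty acid enzymes, a difference of 0.20. In wild-type cells it was -0.64 and -0.70, a difference of 0.06. Over the members without shared reads the difference was 0.12 in knockout and -0.17 in wild-type cells, so the order of the branches in wild-type cells turned. By summed level, the sterol enzymes had 733 CPM in LPS-treated and 888 CPM in untreated knockout cells, and 672 CPM in LPS-treated and 914 CPM in untreated wild-type cells. The fatty acid enzymes summed to 1659 CPM in LPS-treated and 2466 CPM in untreated knockout cells, and 1767 CPM in LPS-treated and 2557 CPM in untreated wild-type cells, sums that Scd2 and Fasn dominate. These are descriptions of the lists and no test was made of the difference between branches.

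Few members were called between knockout and wild-type cells, as was true among all genes. In the additive fit 0 of 33 members passed for genotype with edgeR (adjusted over all genes, of which 1.92% passed), 5 had an unadjusted p under 0.05 (Idi1, Cyp51, Scd1, Scd2 and Fads2, against 13.2% of all genes), and DESeq2 called 0 (1.14% of all genes), with 2 at an unadjusted p under 0.05 (5.00%). No member passed 2-fold between knockout and wild-type cells under LPS, where 3.49% of all genes did, or without LPS, where 2.01% did. At 1.5-fold, Fdps was higher in knockout under LPS (3.98% of genes were called higher), though not when its copies were added (-0.09), and Scd1 was higher in untreated knockout cells (2.71%).

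Scd1 and Scd2 stood on opposite sides. Scd1 was higher in knockout than in wild-type cells in both treatments, with log2 ratios of 0.42 (interval 0.07 to 0.77) under LPS and 0.60 (0.42 to 0.79) without it, and it had the smallest genotype p of the module (log2 difference 0.53 over both treatments, edgeR unadjusted p = 0.00357, adjusted p = 0.103). Scd2 was lower in knockout in both treatments, by -0.36 (-0.41 to -0.31) under LPS and -0.14 (-0.17 to -0.11) without it (edgeR adjusted p = 0.18). The paralogues share a stretch of 623 bases at 95.5% identity, so that reads from the far more abundant Scd2 could be counted in part to Scd1. Fads1 and Fads2 were also slightly lower in knockout in both treatments, with log2 ratios of -0.08 and -0.18 under LPS and -0.14 and -0.15 without it.

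Under LPS the knockout library held somewhat more of the sterol enzymes than the wild-type library. The log2 ratio was above 0 for 13 of 18 (50.2% of all genes), with a counting interval above 0 for 7 (Idi1, Fdps, Fdft1, Sqle, Cyp51, Msmo1 and Sc5d) and below 0 for 0, where 20.1% of all genes lay above and 20.1% below. Fdps leaves both counts when its copies are added (-0.09, -0.32 to 0.15). Fdft1 and Cyp51 overlap exons of Ctsb and Akap9, genes with many reads on the opposite strand. Idi1 had a ratio of 0.49 (0.28 to 0.70), from 29.4 CPM in LPS-treated knockout and 20.9 CPM in LPS-treated wild-type cells. Cyp51 had 73.0 CPM in LPS-treated knockout and 57.5 CPM in LPS-treated wild-type cells (0.34, 0.22 to 0.47), and Fdft1 40.2 and 32.6 CPM (0.31, 0.13 to 0.48). Without LPS the same comparison gave 7 of 18 above 0 (51.8% of all genes), with 1 interval above 0 (Cyp51, 0.10) and 4 below (Acat2, Mvd, Lss and Nsdhl, -0.14 to -0.20), where the background was 15.8% above and 15.2% below. The fatty acid enzymes were mixed under LPS, with the interval above 0 for Acly and Scd1 and below 0 for Scd2, Elovl6, Fads1 and Fads2. Lyz2 and Csf1r, macrophage markers, differed between the same 2 LPS libraries by -1.42 and -0.69 and Adgre1 by 0.77, and the part of such differences in the module's ratios was not tested.

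**Figure D3:**
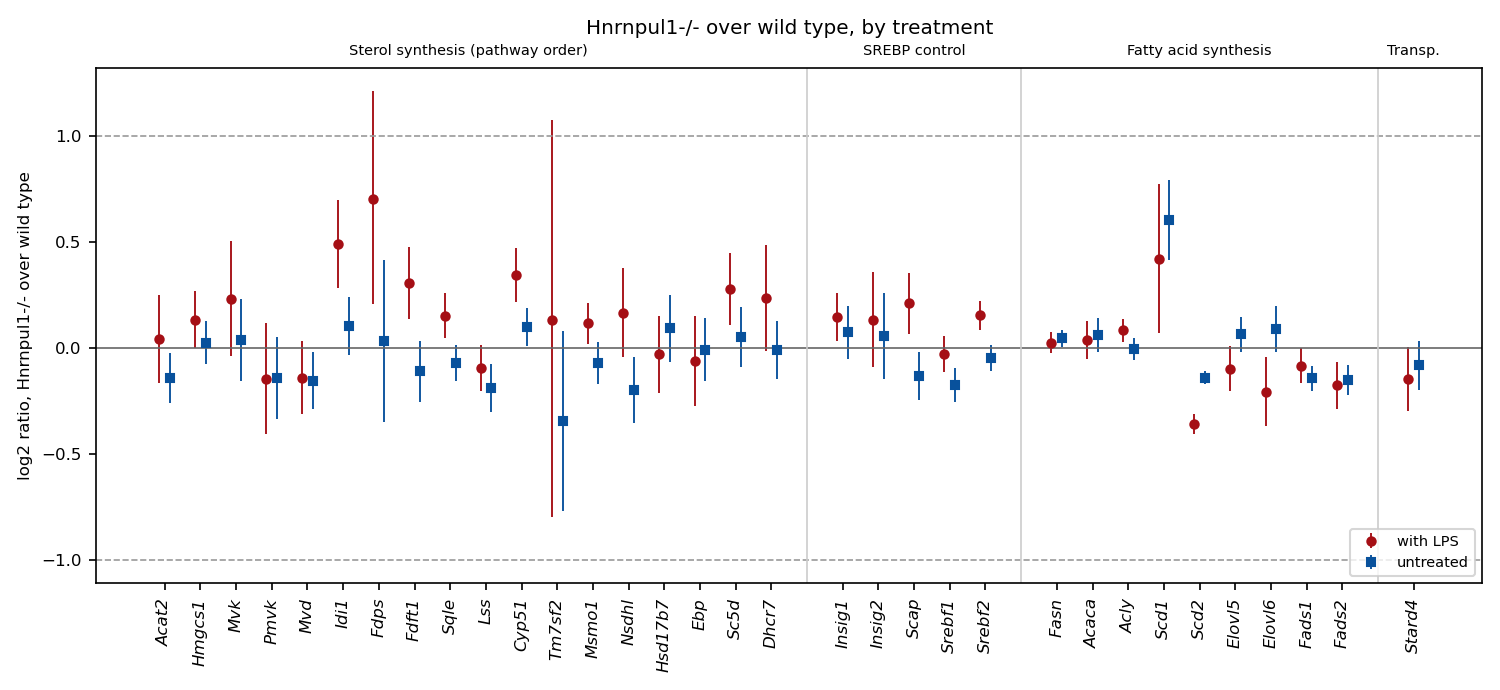
Log2 ratio of knockout over wild-type cells for each of the 33 genes, under LPS and untreated, with 95% counting intervals, from 1 library per group. Dashed lines mark 2-fold, which no member passed. Fdps (0.70), Idi1 (0.49) and Scd1 (0.42) are highest under LPS, and Scd1 (0.60) is highest untreated. With its copies added, which is not drawn, Fdps is at -0.09 under LPS.

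Subtracting the wild-type LPS log2 ratio from the knockout one restates these values as a difference in response. It uses all 4 libraries once, so it is not independent of the ratios above. No member passed 2-fold, where 3.19% of all genes did, and at 1.5-fold Fdps alone was higher (2.72%). That call is lost when the copies of Fdps are added, since its LPS log2 ratio is then -0.25 in knockout and -0.16 in wild-type cells, and the difference lies below 0. The difference was above 0 for 15 of 18 sterol enzymes (48.2% of all genes), with its interval above 0 for 8 (Idi1 0.39, Fdps 0.67 without its copies, Fdft1 0.42, Sqle 0.22, Cyp51 0.25, Msmo1 0.19, Nsdhl 0.36 and Sc5d 0.23) and below 0 for 0. All 5 control genes were above 0, with the interval above 0 for Scap (0.34), Srebf1 (0.14) and Srebf2 (0.20). Of the 9 fatty acid enzymes 2 were above 0, and the interval lay below 0 for Scd2 (-0.22), Elovl5 (-0.16) and Elovl6 (-0.30) and above 0 for Acly (0.09). Among all genes the interval lay above 0 for 14.0% and below 0 for 15.8%. The medians were 0.21 for the sterol and -0.02 for the fatty acid enzymes, against -0.01 for all genes. With 1 library per group, a difference of this size between libraries was not tested against the spread between cultures.

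**Figure D4:**
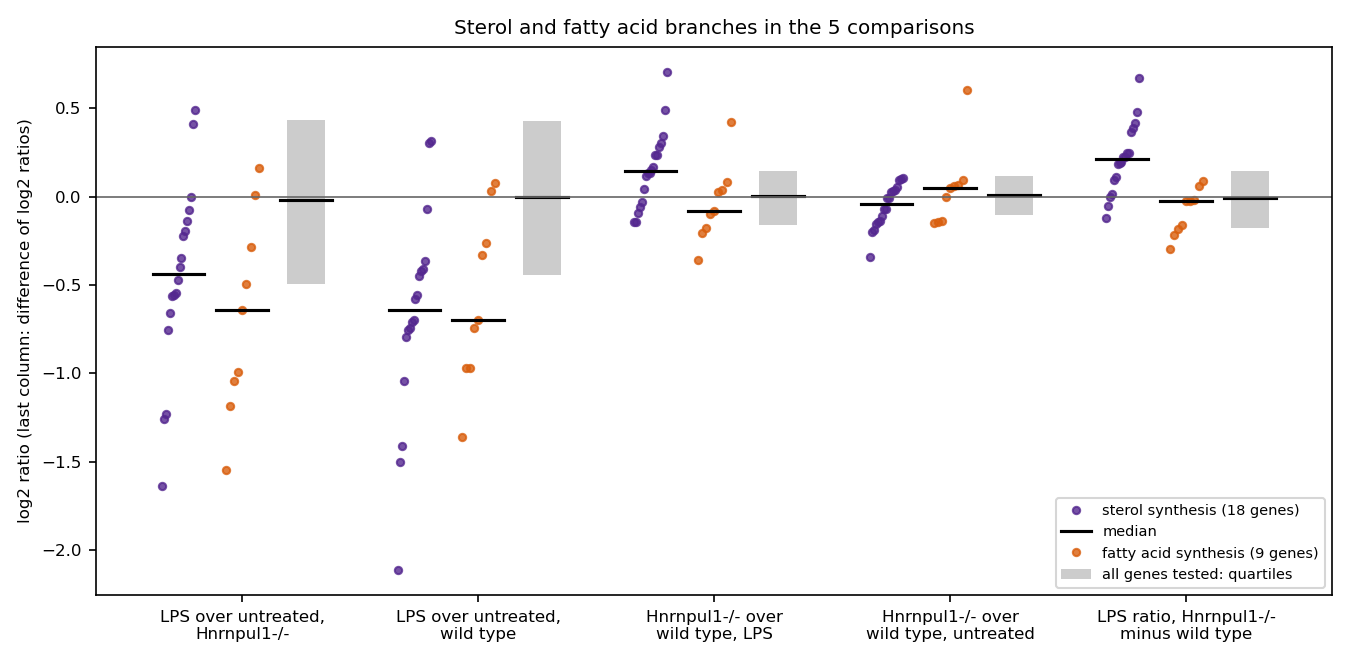
Median log2 ratio of the 18 sterol and the 9 fatty acid enzymes in each comparison, with the single genes as points. The sterol median lies above the fatty acid median by 0.20 in the LPS ratio of knockout cells and by 0.06 in that of wild-type cells, by 0.23 in knockout over wild type under LPS, while the difference is -0.09 untreated. Grey bars span the quartiles of all genes tested.

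Several of these values depend on how reads were assigned between similar genes, and no label or header says if strand was used in counting. Of the 33 members 14 had a near-identical copy or an exon-overlapping gene with at least 3 reads in a library. Fdps is the plainest case. Its copy Gm3571, 98.9% identical over 1062 bases, had 179 counts in LPS-treated knockout, 205 in LPS-treated wild-type cells and, without LPS, 257 in knockout and 250 in wild-type cells, more than Fdps itself in every library. Summed with that copy and Gm5873, Fdps gave LPS log2 ratios of -0.25 (-0.46 to -0.03) in knockout and -0.16 (-0.38 to 0.05) in wild-type cells, and its knockout over wild-type ratio under LPS became -0.09 (-0.32 to 0.15) in place of 0.70. Idi1 summed with its copy Gm13502 kept a ratio of 0.46 (0.25 to 0.66) in that comparison. Fdft1 shares 774 exonic bases with Ctsb on the opposite strand, which had 22939 to 30642 counts, Tm7sf2 shares 532 bases with Vps51 on its own strand, Acat2 shares 445 bases with Tcp1, and Acaca is 99.2% identical to Gm5182 over 6118 bases. Among the 19 members without such a partner, Dhcr7 was the 1 called lower in either genotype. Of all genes tested, 12.0% were called lower in knockout and 10.1% in wild-type cells, so these 19 members show no excess of 2-fold lower calls. The other called members were left out, some for partners with few reads. Elovl6 shares 34 bases with Gm35986, which had 2 to 9 counts. Scd2, with 6257 to 18536 counts, was left out for Scd1, with 119 to 586. Leaving them out therefore does not show that their calls depend on shared reads.

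Genes of neighbouring pathways differed by list in their direction with LPS. For other isoprenoid and sterol genes the median log2 ratio was -0.05 in knockout and 0.17 in wild-type cells. For genes of fatty acid supply and glycerolipid synthesis it was -0.15 and -0.19, so that list leaned the same way as the module. For genes that process or degrade SREBP system proteins it was 0.20 and 0.21. Of 13 other isoprenoid and sterol genes, 4 rose and 2 fell with LPS in the additive edgeR fit, in which 30.2% of all genes rose and 30.1% fell. Genes at 3 branch points off the sterol route rose: Ggps1, which makes geranylgeranyl diphosphate (log2 ratios 0.89 in knockout and 0.93 in wild-type cells), Nus1, which acts in dolichol synthesis (0.73 and 0.54), and Soat1, which esterifies cholesterol (0.69 and 0.95).

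Of 23 measured genes of fatty acid supply and glycerolipid synthesis (28 listed), 5 rose and 9 fell with LPS, against the same shares of all genes (30.2% and 30.1%). Dgat2, the last enzyme of triglyceride synthesis, had 384 counts in LPS-treated and 40 in untreated knockout cells, and 194 in LPS-treated and 37 in untreated wild-type cells, with log2 ratios of 3.53 (3.06 to 4.04) and 2.70 (2.18 to 3.25). Acsl4, which activates arachidonic acid, rose with ratios of 1.12 and 1.22, while Acacb (-1.45 and -1.58, from 13 to 69 counts) and Lpin1 (-1.14 and -0.71), a phosphatidate phosphatase, fell. Of 11 genes that process or degrade SREBP system proteins 6 rose and 0 fell in that fit (30.2% and 30.1% of all genes), and DESeq2 called 4 higher and 0 lower (22.8% and 19.9%). Sec24d and Sec23a, subunits of the COPII coat that carries SCAP and SREBP out of the endoplasmic reticulum, had log2 ratios of 1.57 and 1.52, and of 0.64 and 0.77. The chaperone Hsp90b1 had 0.42 in both genotypes, Rnf139, a ubiquitin ligase, had 0.43 and 0.27, and the site-2 protease gene Mbtps2 had 0.02 and 0.21 and did not pass (adjusted p = 0.238). For genotype, 0 members of these lists passed with edgeR (1.92% of all genes) or DESeq2 (1.14%). At an unadjusted edgeR p under 0.05 there were 2 of 13, 2 of 23 and 3 of 11, against 13.2% of all genes.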

How the data were processed

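Polyadenylated RNA was sequenced from 4 libraries, 1 per group. Per the submitters' processing notes, the tools were featureCounts 1.5.0-p3, HISAT2 2.0.5 and CASAVA 1.8, on GRCm38 (mm10); their roles are not stated. The authors deposited raw whole-number counts. Their deposited FPKM values are these counts over gene length times a library constant, and served as an alternative only. RPKM was computed here from the counts and the deposited gene lengths.

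TMM factors (edgeR 4.0.16, R 4.3.3) were computed over the 11640 genes whose mean CPM reached 1; they were 0.899 in LPS-treated knockout, 0.901 in LPS-treated wild-type cells and, without LPS, 1.12 in knockout and 1.11 in wild-type cells. Ratios carry exact conditional (Clopper-Pearson) 95% intervals, and the difference of LPS ratios a delta-method interval. Intervals cover counting error only, as each group had 1 library. PCR copies of a molecule were not told apart and entered the counts as separate reads. An additive model of LPS and genotype was fitted across all genes with edgeR's quasi-likelihood test, with DESeq2 1.42.0 as an alternative, at an adjusted p threshold of 0.05. Scripts were tested on simulated data. Members and gene lists were chosen with earlier results of these data known. Named genes were Hnrnpul1, the 33 members, and from each neighbouring list up to 4 genes with the largest mean LPS ratio in size and up to 2 with the largest mean genotype ratio, with Ch25h, Abca1 and Abcg1 in any case; 1 gene that this rule names is not reported here. Copies were stretches of at least 400 bases at 95% identity or more between GENCODE transcripts. Alternatives were other scalings and filters, FPKM, a 1.5-fold bound, and, chosen after seeing the data, leaving out members with shared reads.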

Additional observations from a re-analysis of the deposited data

Results flagged for a closer look

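Srebf2 had LPS log2 ratios on opposite sides of 0 in the genotypes, 0.063 in knockout and -0.14 in wild-type cells, each with a counting interval that excluded 0. The difference of 0.20 (0.11 to 0.29) was not tested beyond counting error, and with total-count scaling both ratios were below 0 (-0.25 and -0.43).

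Scap had knockout over wild-type log2 ratios on opposite sides of 0, 0.21 under LPS and -0.13 untreated, each with a counting interval that excluded 0. The difference of 0.34 (0.16 to 0.52) was likewise not tested beyond counting error. An overlapping gene on the opposite strand of Scap had at most 11 counts.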

How the results depend on the processing

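Replicates could not be paired because each group had 1 library, and the additive model compared LPS-treated with untreated cells within genotype. With total-count scaling the LPS medians moved to -0.75 (sterol) and -0.95 (fatty acid) in knockout and to -0.94 and -0.997 in wild-type cells. In wild-type cells 12 members were then called lower, as were 1904 of all 11640 genes. The additive fit with that scaling called 1 member higher, and the share of all genes higher in it was not counted. Srebf1 (-0.23), Acaca (-0.29) and Acly (-0.18) changed sign in that fit. Insig2 then had LPS log2 ratios below 0 in both genotypes, -0.26 in knockout and -0.32 in wild-type cells. The scaling itself gives such a downward shift to all genes. With FPKM as log2(value + 1), 2 members were called lower in wild-type cells, as were 681 of 10923 genes, and the sterol median there was -0.51. At 1.5-fold, 1 member was called higher and 10 lower with LPS in knockout and 14 lower in wild-type cells, and 1 member each was higher in knockout under LPS, in untreated knockout and in the difference of LPS ratios. Leaving out members with shared reads left 1 of 19 called lower in each genotype (12.0% of all genes in knockout and 10.1% in wild type). It gave a fatty acid median of -0.50 in knockout. In wild-type cells it gave medians of -0.50 (sterol) and -0.33 (fatty acid) and a difference between them of -0.17. So the order of the branches in wild-type cells depends on that choice. DESeq2 size factors and dropping the filter moved none of the counts, medians or calls of members. Depth limits Tm7sf2 and Fdps, which a minimum of 10 CPM removes.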

Other observations

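Of 10 measured genes of oxysterol handling and the LXR response (12 listed), 5 rose and 4 fell with LPS in the additive edgeR fit (30.2% and 30.1% of all genes did). DESeq2 called 3 higher and 4 lower (22.8% and 19.9%). For genotype, 0 of the 10 passed with edgeR (1.92% of all genes) or DESeq2 (1.14%), and 2 had an unadjusted edgeR p under 0.05 (13.2%). Abca1, which exports cholesterol to apolipoproteins, had 61.3 CPM in LPS-treated and 12.3 CPM in untreated knockout cells, and 56.9 CPM in LPS-treated and 10.1 CPM in untreated wild-type cells (log2 ratios 2.32 and 2.49, adjusted p = 6.72e-07). Npc2, which binds cholesterol in lysosomes, had log2 ratios of 1.51 and 1.87 with LPS, and Nr1h3, which encodes an LXR, 0.82 and 0.96. The exporter Abcg1 went the other way (-0.56 in knockout and -0.34 in wild-type cells), as did the lipoprotein receptor Scarb1 (-1.14 and -0.92) and Apoe (-0.88 and -0.97). Ch25h, the cholesterol hydroxylase known as an interferon-response gene, had 1 read in LPS-treated knockout cells and 0 in the other 3 libraries, so no ratio is given.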
